A study of Mus musculus with 6 samples.

Results

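Flavin-containing monooxygenases (FMOs) were followed in upper-layer astrocytes (ULAs) and deep-layer astrocytes (DLAs) of the mouse somatosensory cortex, through the 4 rows of the expression table whose symbol is Fmo1, Fmo2, Fmo4 or Fmo5. The table holds 43383 rows, 1 per symbol. The family was selected on the RPKM of ULAs against DLAs in these same libraries, so the differences between layers of the 4 members are given below as a description, with no test. All mice were 4-week-old males that carried the Aldh1l1-eGFP transgene, in which the promoter of an astrocytic folate enzyme drives GFP, and no treatment or other genotype was compared. GFP-positive cells were sorted from layers II to IV (ULAs) and from layers V and VI (DLAs) of 3 brains, which gave 6 libraries. Layer I, the white matter below the cortex, the meninges and part of the border between layers IV and V had been cut away, so astrocytes of those places are not represented. The p-values of the fit used below rest on the spread of the layer difference over 3 brains. In that fit the variance of each row is also drawn towards the trend of the other rows.

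FMOs are flavoproteins of the endoplasmic reticulum that hold FAD and use NADPH and molecular oxygen to add an oxygen atom to soft nucleophiles, mostly nitrogen or sulfur atoms of small molecules. They are best known from liver, kidney and lung, where they oxidise drugs and dietary amines beside the cytochromes P450. FMO1 also turns hypotaurine into taurine, FMO2 is the main form in the lung of many mammals, and FMO5 differs from the others in that it inserts oxygen next to a ketone group. The substrates of FMO4 are little known.

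Because the members are paralogs and the reads were 36 bases long, the mRNAs were first compared with each other, with transcripts of GENCODE M21 (GRCm38) that carry the RefSeq accession of each row. The coding sequence of Fmo1 was identical to those of Fmo2, Fmo4 and Fmo5 at 61.3%, 60.6% and 59.3% of the aligned bases. Over their whole mRNAs, 0 windows of 36 bases, the length of a read, of Fmo1, Fmo2, Fmo4 or Fmo5 came within 2 mismatches of another mRNA of the family. The closest window had 3 mismatches for Fmo1, Fmo2 and Fmo4 and 4 for Fmo5. None of the 2353 windows of Fmo1, the 4031 of Fmo2 or the 1752 of Fmo4 occurred in a transcript of any other gene, and 39 of the 5162 windows of Fmo5 (0.76%) did. Apart from those 39 windows, a read of this length without errors from 1 of the 4 members therefore matches no annotated transcript of another gene. Other parts of the genome were not searched, and how the counting program assigned reads is not known.

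Fmo1 was abundant in both layers, with higher values in ULAs, Fmo5 was low, with values that overlapped between layers, and Fmo2 and Fmo4 were close to 0. Expression is given as RPKM, a read count corrected for mRNA length and for the depth of the library, so that levels of different genes can be set side by side. Where 3 values follow each other for a layer, they belong to brains 1, 2 and 3 in that order, and means are given ± SD of these brains. Averaged over the 6 libraries, Fmo1 was at 22.4 RPKM, Fmo5 at 2.90, Fmo2 at 0.123 and Fmo4 at 0.0983. Fmo1 was the highest and Fmo5 the next in 6 of 6 libraries, with no overlap between the lowest Fmo1 value, 9.91 RPKM, and the highest Fmo5 value, 3.47 RPKM. Fmo2 and Fmo4 did not differ beyond their spread, since Fmo2 was above Fmo4 in 4 libraries and below it in 2. Of the summed RPKM of the 4 members, Fmo1 made up 89.85% to 92.39% in ULAs and 75.54% to 84.84% in DLAs, and Fmo5 made up 6.96% to 8.93% and 13.72% to 24.18%. Among the 22829 rows with a RefSeq accession, the mean level of Fmo1 stood at percentile 90.2 in ULAs and at percentile 77.9 in DLAs, whereas Fmo5 stood at 58.1 and 59.1. Only Fmo1 and Fmo5 reached a mean RPKM of 1, the limit for the fit described below, and Fmo2 and Fmo4 were left out of it.

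**Figure D1:**
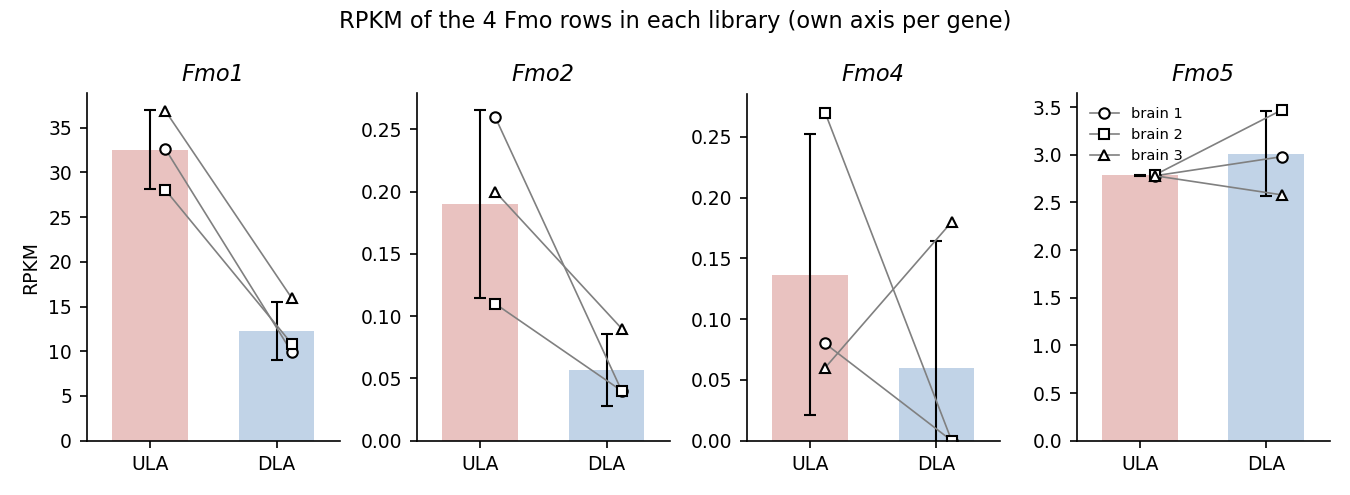
RPKM (vertical axis, own scale for each gene) of Fmo1, Fmo2, Fmo4 and Fmo5 in ULAs and DLAs; bars and error bars are means and SD of 3 brains, and lines join the libraries of 1 brain. The Fmo1 lines all fall from ULAs (28.06 to 36.91) to DLAs (9.91 to 15.95), those of Fmo5 part in both directions, and the highest values of Fmo2 and Fmo4 are 0.26 and 0.27. The error bar of Fmo4 in DLAs is cut at 0 RPKM.

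Fmo1 (NM_010231), the member that oxidises hypotaurine, has 9 exons on the minus strand of chromosome 1 from 164759692 to 164796679 in the coordinates of the table (mm9 by the submitters' processing notes). Its level was 32.65, 28.06 and 36.91 RPKM in ULAs. In DLAs it was 9.91, 10.84 and 15.95 RPKM. The 3 ULA values lay above the 3 DLA values, and within DLAs brain 3 was the highest. Such a lack of overlap towards ULAs was seen in 6.59% of all rows whose mean RPKM reached 1. The ratio of ULAs to DLAs was 3.29, 2.59 and 2.31 in brains 1, 2 and 3, with a mean of 2.73 ± 0.506 (SD, n = 3). On the log2(RPKM + 1) scale, which understates changes of low values, the difference was 1.63, 1.30 and 1.16, with a mean of 1.36 ± 0.239. Each ULA value rests on 1673 to 2293 reads and each DLA value on 496 to 1097. The counting error of each library, as an exact Poisson interval, was narrower than the gap between layers, with 26.7 to 29.4 RPKM at 95% confidence for the lowest ULA library and 15.0 to 16.9 RPKM for the highest DLA library. These intervals, and the limits given below for rows at 0 reads, cover counting error only.

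In bulk RNA of sorted cells, fewer Fmo1-positive astrocytes and less Fmo1 mRNA per astrocyte cannot be told apart. The summed RPKM of 8 astrocyte markers (Aldh1l1, Aqp4, Gja1, Slc1a2, Slc1a3, Aldoc, Gfap and S100b) was 10394 to 11066 in ULAs and 9475 to 10439 in DLAs. These markers did not move together. Gfap passed as higher in DLAs (11.7 ± 1.15 RPKM in ULAs, 23.5 ± 5.53 in DLAs, adjusted p = 0.00556, limma) and S100b was higher there in 3 of 3 brains, whereas Gja1, Slc1a2 and Slc1a3 were higher in ULAs in 3 of 3 brains without passing. Aldoc alone made up 43.8% to 56.8% of the sum. Per 1000 RPKM of these markers, Fmo1 was at 3.13, 2.70 and 3.34 in ULAs and at 0.971, 1.04 and 1.68 in DLAs. Its ratio between layers on this scale was 3.22, 2.60 and 1.98. Relative to the astrocyte markers the difference was close to that on the RPKM scale in brains 1 and 2 and smaller in brain 3. Markers of other cells were not equal between layers. The sum over 7 oligodendrocyte markers was 86.9 to 175.8 RPKM in ULAs and 175.1 to 272.7 in DLAs, with the highest value of each layer in brain 3, and 5 of the 7 passed the test as higher in DLAs, with no marker at 0. For 6 neuronal markers the sum was 6.59 to 6.63 in ULAs and 4.79 to 7.03 in DLAs, and for 6 endothelial markers it was 0.51 to 1.06 and 0.38 to 2.60. The sums over 6 microglial markers were 12.9 to 13.8 RPKM in ULAs and 8.58 to 11.7 in DLAs. P2ry12 (12.1 ± 0.486 and 9.35 ± 1.38 RPKM) made up most of them, and the other 5 had means under 1 RPKM. Of these, Tmem119 was higher in ULAs in 3 of 3 brains and C1qa in 0. Sums over 5 markers of meningeal fibroblasts (Slc6a13 at 0) were 3.07 to 4.10 and 4.95 to 6.27 RPKM, mostly Col1a1 (2.85 ± 0.407 and 4.69 ± 0.996). Those over 3 haemoglobin and haem synthesis rows were 0.81 to 1.07 and 4.70 to 32.6. Markers of oligodendrocyte precursors (4 rows, 0.36 to 0.93) and ependymal cells (3 rows, 0.32 to 0.91, Tmem212 at 0) stayed under 1 RPKM in sum in every library. The part of these cells in the Fmo1 values was not tested.

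Fmo5 (NM_010232 and 2 further accessions), the member that oxidises ketones, lies apart from the rest of the family, on the plus strand of chromosome 3 from 97432727 to 97459210, and has 8 exons. Its level was 2.78, 2.79 and 2.78 RPKM in ULAs. In DLAs it was 2.98, 3.47 and 2.58 RPKM. The ULA values fell inside the range of the DLA values. The ratio of ULAs to DLAs was 0.933, 0.804 and 1.08, so that Fmo5 was higher in ULAs in 1 of 3 brains, and the mean log2 difference was −0.08 ± 0.158 (SD, n = 3). The 3 ULA values lay much closer together than the counting error of a single library, whose interval ran from 2.51 to 3.10 RPKM in brain 1, at 362 to 396 reads per library. Their small SD, 0.00577 RPKM, is therefore no measure of the precision. Per 1000 RPKM of astrocyte markers Fmo5 was at 0.251 to 0.268 in ULAs and at 0.272 to 0.332 in DLAs. Its ratio on that scale was 0.913, 0.808 and 0.923, so that, unlike on the RPKM scale, it was lower in ULAs in 3 of 3 brains. The layers did not overlap there, but the gap, 0.268 against 0.272, was small beside the counting error of a library. This scale was chosen after seeing the data, and the share of all rows without overlap on it was not counted.

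Fmo2 (NM_018881), the lung form, is the next row to Fmo1 on chromosome 1, from 164805178 to 164828843 on the same strand. Its RPKM was 0.26, 0.11 and 0.20 in ULAs, from 22, 10 and 18 reads. In DLAs it was 0.04, 0.04 and 0.09, from 4, 3 and 10 reads. The layers did not overlap, a pattern towards ULAs that 3.95% of the rows between a mean RPKM of 0 and 1 showed. The ratio was 6.50, 2.75 and 2.22 in brains 1, 2 and 3, and the intervals of the lowest ULA library, 0.0561 to 0.215 RPKM, and of the highest DLA library, 0.0486 to 0.186 RPKM, overlapped. The mean log2(RPKM + 1) difference was only 0.17 ± 0.095 (SD, n = 3), since the values are small beside the added 1. Of 6 markers of mural cells, the contractile cells of vessels, 3 (Rgs5, Acta2 and Myh11) were higher in ULAs in 3 of 3 brains. Rgs5, a regulator of G-protein signaling in pericytes, was at 2.25 ± 0.395 RPKM in ULAs and 0.897 ± 0.133 in DLAs (log2 difference 0.77, SE 0.160, adjusted p = 0.0455, limma), and the smooth muscle actin gene Acta2 was at 0.20 ± 0.125 and 0.0367 ± 0.0635 RPKM. Pdgfrb, a growth factor receptor and the most abundant of the list, was at 19.84, 12.76 and 12.21 RPKM in ULAs and at 16.91, 14.71 and 10.31 in DLAs (adjusted p = 0.79, limma), so that brain 2 had less of it in ULAs. Kcnj8 was above 0 only in the DLAs of brain 2 (0.02 RPKM), and Abcc9 was at 0 in every library. The sum over the list was 21.9, 15.2 and 15.2 RPKM in ULAs and 17.9, 15.6 and 11.3 in DLAs, and the part of these cells in the Fmo2 values was not tested.

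Fmo4 (NM_144878) lies on the other side of Fmo1, from 164724014 to 164742680. It was at 0.08, 0.27 and 0.06 RPKM in ULAs, from 4, 13 and 3 reads. In the DLAs of brains 1 and 2 it had 0 reads, which allows up to 0.0632 and 0.0854 RPKM (3 reads), and in those of brain 3 it was at 0.18 RPKM from 10 reads. The layers overlapped, and brain 3 went against the other brains. All ULA libraries together held 20 reads and all DLA libraries 10, and the brains disagreed in direction, with 13 against 0 reads in brain 2 and 3 against 10 in brain 3.

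**Figure D2:**
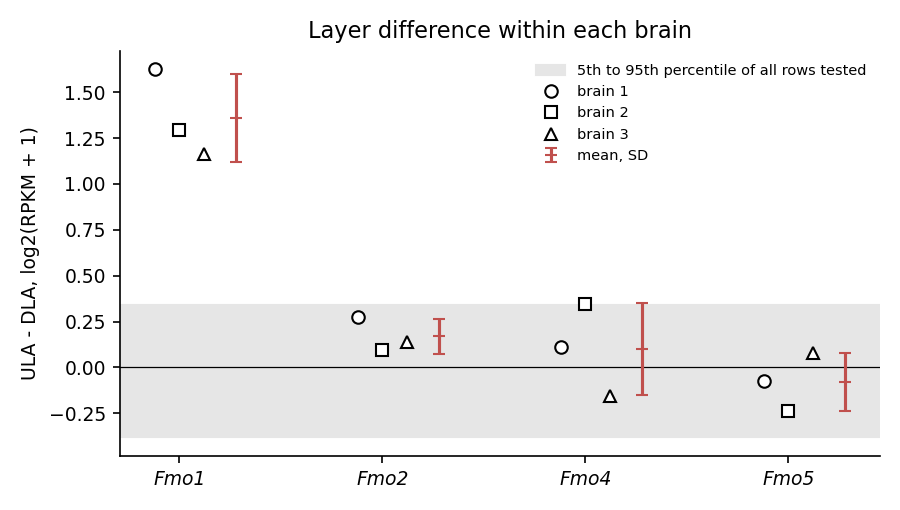
Difference between ULAs and DLAs in log2(RPKM + 1) within each brain for the 4 members, with the mean and SD of 3 brains; the grey band spans the 5th to 95th percentile of the 13999 rows tested (−0.38 to 0.34). The 3 points of Fmo1 lie at 1.63, 1.30 and 1.16, above the band, and the points of Fmo2, Fmo4 and Fmo5 lie inside it or at its upper edge. The band is made of means over 3 brains, whereas each point is 1 brain. Fmo2 and Fmo4 were too low to be among its rows, so their place in it is only a guide to scale.

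To place these values among the other genes, the 13999 rows whose mean RPKM reached 1 were fitted with limma on the log2(RPKM + 1) scale, with brain and layer as terms and Benjamini-Hochberg adjustment over all rows. An adjusted p under 0.05 counted as passing. Of these rows, 100 passed as higher in ULAs (0.714%) and 128 as higher in DLAs (0.914%), that is, 1.63% in either direction. After quantile normalization the split was 138 and 103, without the brain term 23 and 18, and without brain 3 it was 426 and 687. The median difference of all rows was −0.03. The difference of Fmo1 ranked as number 9 from the top and that of Fmo5 as number 8380, a description of the contrast by which the family was picked.

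Other rows of the family were near or at 0. Fmo6 was at 0, 0.14 and 0.13 RPKM in ULAs and at 0.01 to 0.02 in DLAs, from at most 7 reads in a library. Of its windows of 36 bases, 60 (3.62%) occurred in another gene, so its reads may be shared. Fmo9, Gm4846 and Gm4847 were listed at 0 in all 6 libraries. The family rows Fmo4, Fmo1, Fmo2 and Fmo6 follow each other on the minus strand of chromosome 1. The gap between Fmo4 and Fmo1 is 17.0 kb, that between Fmo1 and Fmo2 is 8.5 kb and that between Fmo2 and Fmo6 is 17.8 kb. Fmo4, Fmo2 and Fmo6 did not exceed 0.27 RPKM in any library.

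The tested genes around the cluster all had smaller differences than Fmo1. So did nearly all rows that were tested, since Fmo1 ranked as number 9 of 13999. Within 500 kb of Fmo1, Fmo2 or Fmo4 the table has 19 other rows. Of these, 8 were tested and 0 passed in limma (1 at an unadjusted p under 0.05). Of all rows tested, 1.63% passed and 16.4% had an unadjusted p under 0.05, so 8 rows are too few to tell the region from the rest. Their differences ranged from −0.09 to 0.36, with a median of 0.09. The tested gene nearest to Fmo1 was Prrc2c, 89 kb away, at 7.19, 7.68 and 5.94 RPKM in ULAs and at 5.63, 5.10 and 6.13 in DLAs (log2 difference 0.26, SE 0.143, adjusted p = 0.403, limma). Vamp4, which encodes a protein of vesicle fusion, was at 62.86 to 76.84 RPKM in ULAs and 63.52 to 69.14 in DLAs, and Prrx1, a homeobox gene on the other side of the cluster, was at 9.96 to 10.86 and 6.99 to 12.48. Around Fmo5, 0 of 10 tested rows passed in limma (1 at an unadjusted p under 0.05), with differences from −0.21 to 0.35 and a median of −0.04. Prkab2, a subunit of the AMP-activated kinase only 2.9 kb from Fmo5, was at 3.62 to 4.83 RPKM in ULAs and 4.03 to 4.30 in DLAs.

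**Figure D3:**
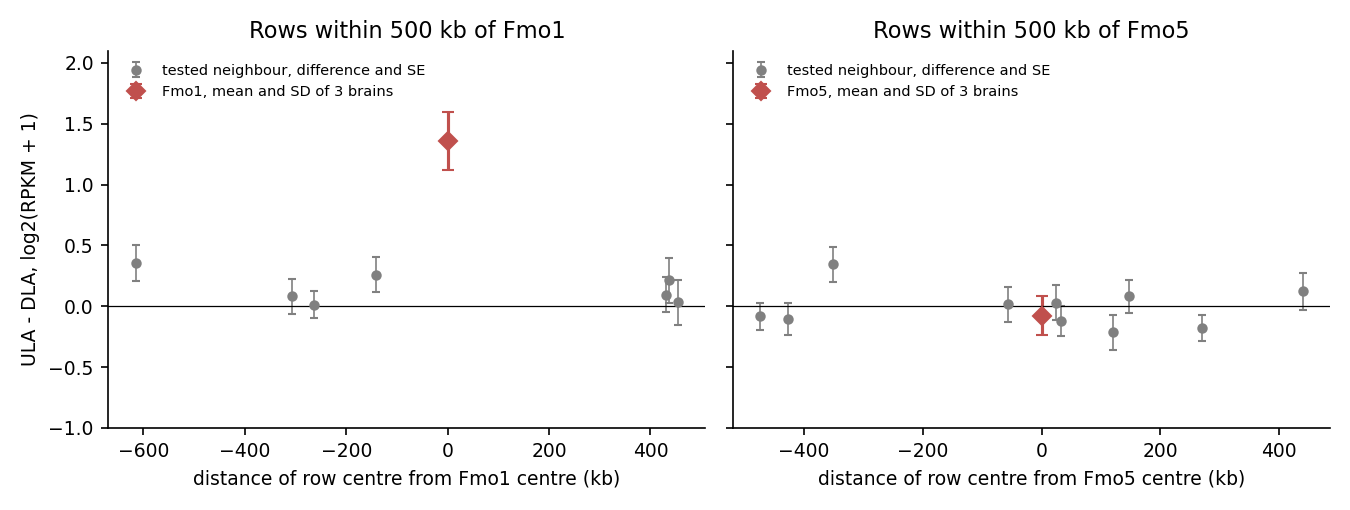
Difference between ULAs and DLAs in log2(RPKM + 1) against the distance in kb between the centre of each tested row and the centre of Fmo1 (left) or Fmo5 (right), for rows whose nearest edge lies within 500 kb. Grey points with SE are the 7 and 10 tested neighbours, between −0.21 and 0.36, and the red diamonds with SD of 3 brains are Fmo1 at 1.36 and Fmo5 at −0.08.

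FMOs depend on NADPH, on FAD and on the supply of substrates, and genes of these pathways were counted from lists. Of 31 tested rows in 7 lists, 0 passed in limma in either direction, against 1.63% of all rows. An unadjusted p under 0.05 was found for 5 of them (16.1%), near the share of all rows (16.4%), and the median difference was −0.09, against −0.03 for all rows. Among the other flavin-dependent monooxygenases, Sqle, the squalene epoxidase of cholesterol synthesis, was at 241.9 ± 32.9 RPKM in ULAs and 265.0 ± 21.3 in DLAs. Mical2, which oxidises actin, was at 23.5 ± 5.62 and 22.8 ± 2.08, and Kmo, kynurenine monooxygenase, was at 0 in 5 of 6 libraries. Of 5 tested rows in this list 2 had a difference above 0 and 3 below, with a median of −0.08.

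Among the enzymes that supply cytosolic NADPH, 8 rows were tested, 0 passed and the median difference was −0.12. Idh1, the cytosolic isocitrate dehydrogenase, was at 219.1 ± 34.3 RPKM in ULAs and 242.6 ± 18.6 in DLAs, and Aldh1l1, the folate enzyme whose promoter drives the GFP, was at 221.9 ± 19.8 and 245.4 ± 23.8. For riboflavin uptake and FAD synthesis 4 rows were tested and 0 passed. Flad1, FAD synthase, was at 34.2 ± 1.91 RPKM in ULAs and 41.6 ± 5.21 in DLAs, with a log2 difference of −0.27 (SE 0.118, adjusted p = 0.296, limma), and Rfk, riboflavin kinase, was at 18.6 ± 0.579 and 21.8 ± 2.17. Por, the reductase that passes electrons from NADPH to the cytochromes P450, was at 244.4 ± 36.3 and 235.1 ± 26.3 RPKM. Cyb5, cytochrome b5, had the lowest adjusted p of its list, at 216.9 ± 37.0 RPKM in ULAs and 267.9 ± 19.7 in DLAs (log2 difference −0.31, SE 0.096, adjusted p = 0.152, limma). It was lower in ULAs in 3 of 3 brains. Of 11 settings it passed in 1, the fit without brain 3 (adjusted p = 0.033, limma). In that fit 426 rows of the whole table passed as higher in ULAs and 687 as higher in DLAs, against 100 and 128 with all brains.

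Taurine synthesis bears on Fmo1 through hypotaurine. Cdo1, cysteine dioxygenase, which starts the pathway from cysteine, was at 24.80, 28.77 and 36.66 RPKM in ULAs and at 20.13, 28.42 and 23.96 in DLAs. Each brain had more Cdo1 in ULAs, but the layers overlapped and the log2 difference of 0.30 (SE 0.127) did not pass (adjusted p = 0.279, limma). Csad, which makes hypotaurine from the product of that pathway, was at 15.45, 12.94 and 13.90 RPKM in ULAs and at 16.87, 16.93 and 7.99 in DLAs. The taurine carrier Slc6a6 was at 0.07 to 0.15 RPKM in ULAs and 0.17 to 0.31 in DLAs and was not tested. Of the reductases of methionine sulfoxide, an S-oxide of the kind that FMOs form, Msrb2 was lower in ULAs in 3 of 3 brains. It was at 35.4 ± 2.85 RPKM against 46.8 ± 3.78 (log2 difference −0.39, SE 0.10, adjusted p = 0.0942, limma). Of 11 settings it passed only without brain 3 (adjusted p = 0.0448, limma), where more rows of the whole table passed too. Msrb1 of the same list was at 11.8 ± 0.453 and 14.1 ± 2.49 RPKM. Msra went the other way in 2 of 3 brains, at 13.4 ± 2.83 RPKM in ULAs and 11.3 ± 0.570 in DLAs (log2 difference 0.21).

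Of 6 transcription factors tied to Fmo genes in liver, 3 were tested and 0 passed. Hnf4a, a liver factor that acts on Fmo1 there, was listed at 0 in all libraries. Arnt, the partner of the dioxin receptor, was at 10.3 ± 1.43 RPKM in ULAs and 9.87 ± 0.401 in DLAs, and Nfe2l2, the factor of the oxidative stress response, at 64.9 ± 9.38 and 78.6 ± 5.94 (log2 difference −0.28, SE 0.102, adjusted p = 0.221, limma). Ahr, the receptor for dioxin-like compounds, was at 1.47, 0.43 and 2.63 RPKM in ULAs and at 0.26, 0.03 and 0.86 in DLAs. Each brain had more in ULAs, but the ranges overlapped, and with a mean RPKM under 1 the gene was not tested.

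**Figure D4:**
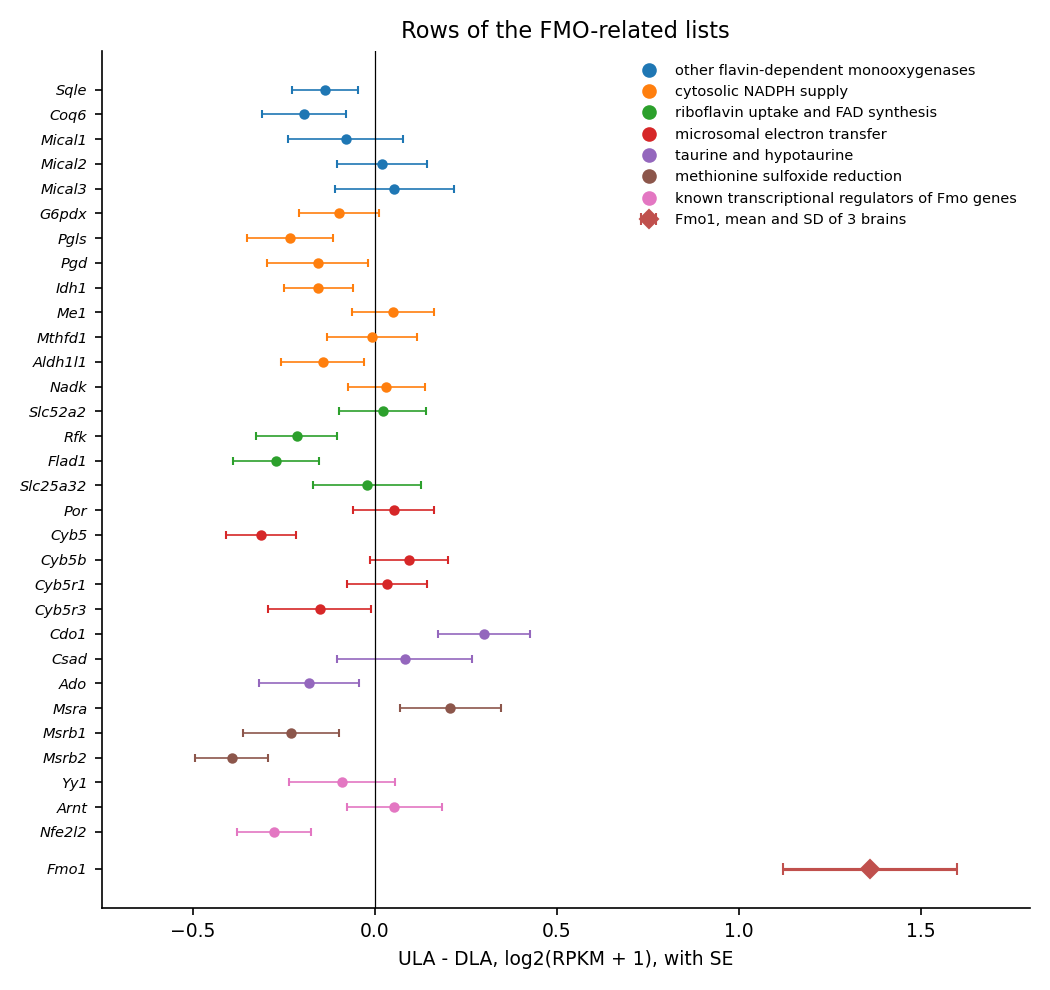
Difference between ULAs and DLAs in log2(RPKM + 1), horizontal axis, for the 31 tested rows of the 7 lists (colours), with SE from limma; none passed, and they lie between −0.39 (Msrb2) and 0.30 (Cdo1). Fmo1, at 1.36 with the SD of 3 brains, is drawn below them for scale.

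The rows whose log2(RPKM + 1) values over the 6 libraries were most like those of Fmo1, among 11474 other RefSeq rows that passed the same limit of 1 RPKM, were Ptn, Pon2 and Pde3a, with Pearson's r of 0.997, 0.992 and 0.989. The libraries come from only 3 brains and these rows were picked as the highest of many, so r is a description, and 59 rows had an r over 0.95. Ptn, which encodes the secreted growth factor pleiotrophin, was at 870.9, 809.2 and 873.0 RPKM in ULAs and 527.5, 562.0 and 634.4 in DLAs. Pon2, a lactonase of the endoplasmic reticulum, was at 300.8, 303.5 and 313.2 against 235.1, 244.4 and 265.9, and Pde3a, a phosphodiesterase, at 1.96, 1.62 and 2.08 against 0.14, 0.40 and 0.89. As with Fmo1, the DLAs of brain 3 were the highest of the DLAs in all of these. Closest to Fmo5 were Pisd, which makes phosphatidylethanolamine in mitochondria, the row of the miRNA precursor Mir1982 and Dus1l, a tRNA dihydrouridine synthase (r of 0.993, 0.990 and 0.988), each highest in the DLAs of brain 2 and lowest in those of brain 3. For Fmo2 these rows were Apobr, Fabp5 and Cd59a (0.995, 0.994 and 0.989), and for Fmo4 Epg5, Gabra2 and Wipf2 (0.994, 0.993 and 0.993), where the member's own values come from 22 reads or fewer in each library.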

How the data were processed

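The 6 libraries (3 ULA, 3 DLA) were made with the SMART-Seq v4 and Nextera XT kits and read from 1 end over 36 bases. RPKM values per symbol and mRNA lengths were deposited by the authors. The submitters' processing notes name bcl2fastq 1.8.4, CASAVA 1.8.2 and mm9, and the counting program is not given in the sources used here. Exon ends minus starts summed to the length in 100% of rows, so starts were read as counted from 0 and printed from 1. Short rows (500 bases at most) had RPKM values that fit depth-scaled reads cut to 2 decimals, then scaled to length and cut again. 100% of them gave whole reads at depths of 19.66 to 29.56 M reads, and these reads were used for precision only.

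Rows whose mean RPKM reached 1 were tested on log2(RPKM + 1) with limma 3.58.1 in R 4.3.3 (intensity trend, brain and layer as terms, 2-sided), and passed at an adjusted p under 0.05. Within a replicate number, ULA and DLA deviations from the layer means correlated across rows (r of 0.42, 0.33 and 0.34, against −0.20 to −0.16 otherwise), and the study's own test pairs layers within brains, so the number was taken as the brain. The fit was tested on simulated data. Members and lists were chosen with earlier results of these data known. Named are the members, the other family rows, and, for each list, rows that passed or else the 2 most abundant, passing neighbours within 500 kb and the 3 rows most alike each member. Other rows, Kmo, Ahr, the single markers and the neighbours among them, were named after their values were seen. Some items that the rule names are not reported here. mRNA sequences were compared in GENCODE M21 on GRCm38, and coordinates were not carried between builds. Alternatives were a pseudocount of 0.1, no filter, a filter at 5 RPKM, no brain term, quantile normalization, centring on the median, omission of each brain, no variance trend and, for the members, a length correction (loess, span 0.5), no pseudocount and, added later, division by astrocyte markers.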

Additional observations from a re-analysis of the deposited data

How the results depend on the processing

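Fmo1 kept its direction, within 1 SD of the value given, in 10 of 10 alternatives. Fmo5 also stayed within 1 SD in 10 of 10, but its sign, like that of Fmo4, changed without brain 2. The alternatives that omit 1 of 3 brains could not move the mean by 1 SD. The one without the brain term leaves the mean the same by construction. Agreement within 1 SD in these alternatives is therefore no test. When 1 brain was omitted at a time, the log2 difference of Fmo1 was 1.228 to 1.460, that of Fmo2 0.116 to 0.208, that of Fmo4 −0.022 to 0.228 and that of Fmo5 −0.156 to 0.002. Relative to the astrocyte markers, an alternative chosen after seeing the data, it was 1.351 for Fmo1 and −0.185 for Fmo5. For the low members the scale decides the size. Fmo2 was at 0.869 with a pseudocount of 0.1 and at 1.745 as the log2 ratio of layer means with no pseudocount, and Fmo4 at 0.643 and 1.188, since 1 is large beside values of at most 0.27 RPKM. Without the brain in the model (no replicate block), 23 rows passed as higher in ULAs and 18 as higher in DLAs, the number in the related lists stayed at 0, and the members' mean differences were the same by construction. With no filter on low RPKM 0 rows passed in either direction, against 1124 and 1675 at an unadjusted p under 0.05 in limma, and without the variance trend 65 and 79 passed. With 1 brain left out, 104 to 426 rows passed as higher in ULAs and 126 to 687 as higher in DLAs, the highest numbers without brain 3, and 0 to 2 rows of the related lists. The 2 rows without brain 3 were Cyb5 (adjusted p = 0.033, over a range of 0.033 to 0.832) and Msrb2 (0.0448, over 0.0448 to 0.467), both lower in ULAs. The cause was not tested. Depth limits Fmo2 and Fmo4, which had 22 reads or fewer in every library.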

Other observations

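Of the rows near the Fmo cluster that were too low to be tested, Myoc, which encodes myocilin and lies 179.9 kb from Fmo1, was at 0.25, 0.03 and 0.17 RPKM in ULAs (brains 1, 2 and 3) and at 0.03, 0.02 and 0.07 in DLAs. The row 7420461P10Rik, 171.3 kb from Fmo1, was at 0.37, 0.09 and 0.29 RPKM in ULAs and at 0.09, 0.06 and 0.21 in DLAs. Both rows, which overlap each other on opposite strands, were picked after their values were seen. They were higher in ULAs in each brain, with overlap between the layers.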
